A study of Mus musculus with 8 samples.

Results

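The genes described here are 10 members of the receptor layer of the TGF-b superfamily in mouse CD4 T cells. They are the TGF-b receptors Tgfbr1, Tgfbr2 and Tgfbr3, the activin and bone morphogenetic protein (BMP) receptors Acvr1, Acvr1b, Acvr2a, Bmpr1a and Bmpr2, and the ligands Tgfb1 and Tgfb3. They were chosen by name, with earlier results of these data known. Every probe set annotated to exactly 1 of them was read. This gave 10 of the 18193 genes named on the array and 27 of the 34945 probe sets with a single gene symbol. A further probe set, annotated to Acvr2a together with another gene, was left out. Expression was measured on single-colour Affymetrix arrays after 24 h of culture with TGF-b at 2 ng/ml or without it. The 8 samples were 1 with and 1 without TGF-b from each of 4 genotypes, all labelled C57BL/6J. These were a T cell-specific conditional Smad2 knockout (Smad2del/del, here Smad2KO), a Smad3 knockout (Smad3-/-, Smad3KO), the Smad2 knockout with a heterozygous Smad3 knockout (Smad2del/del Smad3+/-, Smad2KO_Smad3het), and wild type (WT). The labels name neither the Cre line that deletes Smad2 nor the age of the mice, and Smad2KO_Smad3het cells stood in for cells lacking both Smads. Every culture held naive splenic CD4 cells sorted as CD25-, CD44lo and CD62Lhi. All received anti-CD3e (1 ug/ml), anti-CD28 (1 ug/ml), anti-IFN-g (10 ug/ml), anti-IL-4 (10 ug/ml) and 10 ng/ml of IL-2. Nothing in the labels ties the cultures to separate animals. With 1 array per genotype and treatment, the spread of a probe set comes from differences in TGF-b response between genotypes. These cannot be told apart from animal or technical differences. For mean responses and levels, this spread includes the Smad3KO difference in response that is tested below. Each p-value rests on this spread after limma moderated it with the spread of all tested probe sets.

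TGF-b superfamily ligands are dimers that bring together type II receptor kinases, such as Tgfbr2, Acvr2a and Bmpr2, and type I receptor kinases, such as Tgfbr1, Acvr1b, Acvr1 and Bmpr1a. The type II kinase phosphorylates the type I kinase, which then phosphorylates receptor Smads. Tgfbr1 and Acvr1b act on Smad2 and Smad3, whereas Acvr1 and Bmpr1a act on Smad1, Smad5 and Smad9. In T cells, signalling through Tgfbr1 and Tgfbr2 restrains activation and is needed to induce Foxp3 in naive cells.

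Signals are given after scaling of all arrays to a common trimmed mean. On the 6 arrays of Smad2KO, Smad3KO and WT the median signal of 25.8 served as a floor, under which signals have no order, and a probe set was tested if it reached 51.6 on at least 1 array. The 2 Smad2KO_Smad3het arrays stood apart. Their median signals were 84.7 with and 82.0 without TGF-b, against 24.4 to 28.3 on the other 6. Rank correlations across probe sets were 0.907 to 0.928 among the 6 and 0.659 to 0.693 between the 6 and these 2. The ratio of 3' to 5' beta-actin probe sets, a sign of RNA quality, was 1.55 with and 1.25 without TGF-b on this pair and 1.12 to 1.19 on the other 6, and its part in the folds of this pair was not tested. Tests therefore used the 6 arrays, with genotype as a block, and fits to all 8 are given beside them. The 7 CD4 T cell markers with a named probe set, among them Cd4, Cd3d and Cd3e, were present on all 8 arrays. On the 6 arrays their summed signals were 21164 to 23848 with TGF-b and 23019 to 23734 without it. On these arrays 0 of 5 B cell and 0 of 3 NK cell markers reached 51.6, and 2 of 2 CD8 T cell, 2 of 8 myeloid and 1 of 7 endothelial and stromal markers did. Summed signals with and without TGF-b were 54.1 to 105 and 66.3 to 128 for CD8 T cells, 52.7 to 63.8 and 49.6 to 74.4 for B cells, 118 to 157 and 165 to 210 for myeloid cells, 32.5 to 69.3 and 7.23 to 19.5 for NK cells, and 138 to 207 and 160 to 219 for endothelial and stromal cells. On the Smad2KO_Smad3het arrays with and without TGF-b the sums were 17764 and 17471 for CD4 T cells, 1255 and 978 for CD8 T cells, 272 and 265 for B cells, 2056 and 2436 for myeloid cells, 565 and 292 for NK cells, and 885 and 660 for endothelial and stromal cells. The part of these differences in the results below was not tested. The brightest Smad2 probe set read 830 with and 916 without TGF-b in Smad2KO, against 818 and 848 in WT, and the brightest Smad3 probe set 579 and 487 in Smad3KO, against 435 and 119 in WT. The sources do not place these probes inside or outside the deleted sequence, and they do not check the labels.

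Of the 27 probe sets, 17 were bright enough to test, and 9 of the 10 genes had at least 1 of them. The exception was Tgfb3, a ligand of the same receptors as Tgfb1, whose only probe set stayed between 0.639 and 10.6 on the 6 arrays. In the mean response over the 3 genotypes, 11 of the 17 probe sets rose with TGF-b, from 7 genes, and 0 fell. Among all 20147 probe sets tested on the array, 5.93% rose and 3.49% fell (limma, Benjamini-Hochberg adjusted p under 0.05). The median log2 response was 0.81 over the 17 and 0.00 over all 20147. Of the 17, 3 were tested only because they were bright with TGF-b (1451004_at of Acvr2a, 1425492_at of Bmpr1a and 1419616_at of Bmpr2), and such a probe set could hardly have fallen. All 3 arrays with TGF-b read higher than all 3 without it for 15 of the 17 probe sets, as they did for 13.4% of all tested. With the Smad2KO_Smad3het pair added, 0 of 23 member probe sets passed on 8 arrays, where 0.0659% of 28819 rose and 0.0104% fell, and 3436 had an unadjusted p under 0.05. Leaving out the WT pair ended the calls of Tgfbr1 on 1420895_at (limma adjusted p = 0.148), Acvr1b (0.112) and Tgfb1 (0.0963). Leaving out the Smad2KO pair ended those of Tgfbr2 (0.063), Acvr1b (0.0875) and Bmpr2 on 1434310_at (0.187), and 1419616_at of Bmpr2 was lost without any 1 of the 3 pairs (0.172 without WT, 0.327 without Smad2KO and 0.0541 without Smad3KO). When the floor was lowered to the 25th percentile, the calls of 1420895_at of Tgfbr1 (0.0731) and 1434310_at of Bmpr2 (0.0938) were lost and 1425444_a_at of Tgfbr2 was gained (0.0484). In these bulk samples fewer cells that express a gene and less RNA per cell cannot be told apart.

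**Figure D1:**
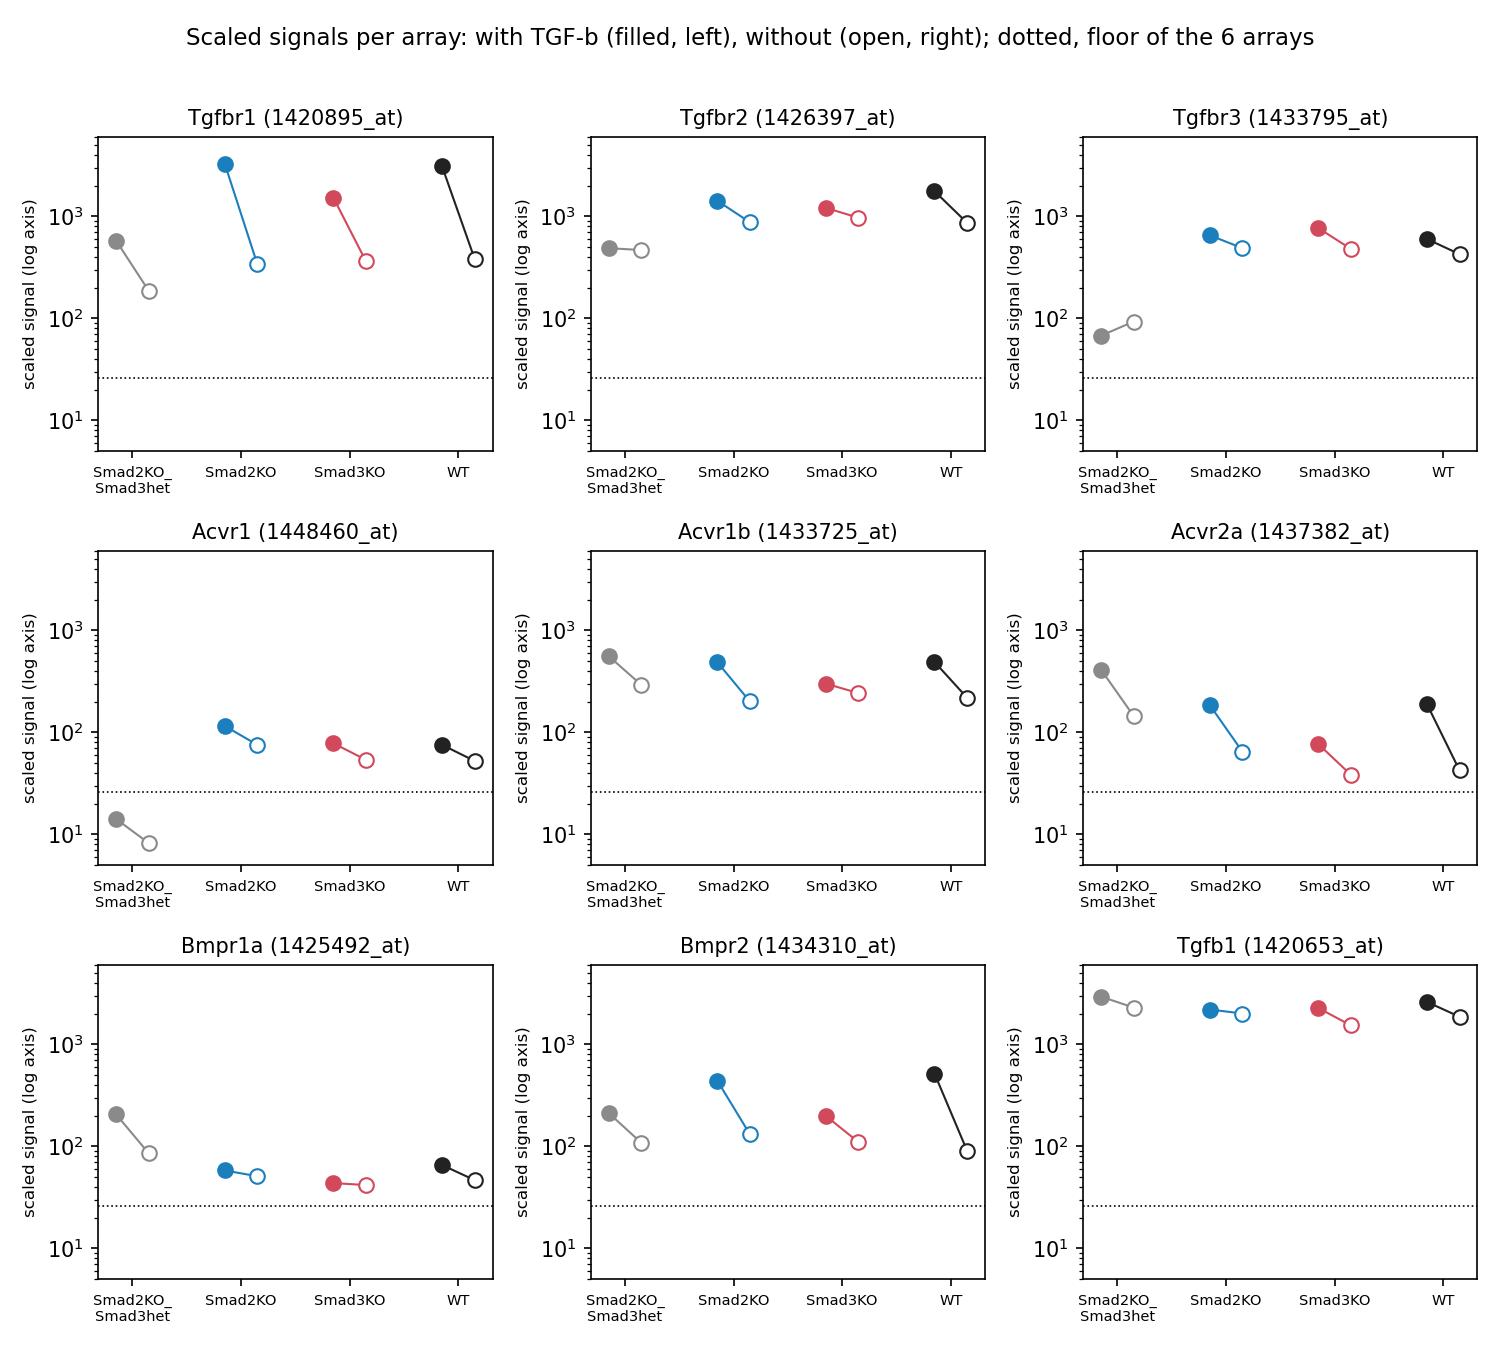
Scaled signals (log axis) of the brightest tested probe set of each of 9 genes on the 8 arrays, grouped by genotype, with TGF-b filled at the left and without it open at the right of each pair. The dotted line is the floor of 25.8, a line between points joins the 2 arrays of a genotype, and Tgfbr1 has the widest gap in Smad2KO, 3291 against 340.

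Tgfbr1, the type I kinase of the TGF-b receptor, had the largest responses of the 10 genes, and all 3 of its probe sets rose. The brightest, 1420895_at, read 3291 in Smad2KO, 1527 in Smad3KO, 578 in Smad2KO_Smad3het and 3107 in WT with TGF-b. Without TGF-b it read 340 in Smad2KO, 363 in Smad3KO, 187 in Smad2KO_Smad3het and 385 in WT. The arrays without TGF-b thus lay close together apart from the lower Smad2KO_Smad3het array, while with TGF-b the Smad3KO signal was well below the Smad2KO and WT signals. Its folds with over without TGF-b were 9.67 in Smad2KO, 4.21 in Smad3KO, 3.09 in Smad2KO_Smad3het and 8.07 in WT. The mean log2 response over Smad2KO, Smad3KO and WT was 2.79 (SE 0.261, limma adjusted p = 0.0094). The dimmer probe set 1420894_at read 343 in Smad2KO, 168 in Smad3KO, 181 in Smad2KO_Smad3het and 331 in WT with TGF-b, against 39.0, 29.2, 119 and 70.6 without it. It rose by 2.63 (SE 0.195, limma adjusted p = 2.02e-05). The third, 1420893_a_at, rose by 2.40 (SE 0.223, limma adjusted p = 0.000117), with folds of 7.90 in Smad2KO, 3.48 in Smad3KO and 5.32 in WT. In Smad2KO_Smad3het these last probe sets were 1.53-fold and 1.48-fold higher with TGF-b. On all 8 arrays the 3 mean responses were 2.50, 2.02 and 1.87, and none passed (limma adjusted p = 0.0827, 0.177 and 0.19).

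The sequence upstream of the receptor genes is shown for the pair of kinases that bind TGF-b itself and for Acvr2a, a type II receptor of activins. These are the 250 bases before the annotated start from RefSeq on GRCm38.p6, which held a window for 8 of the 10 genes. Capitals mark CAGAC, the short box that Smad3 and Smad4 bind, and GGGCGG, the GC box that Sp1 binds, each on either strand.
Tgfbr1: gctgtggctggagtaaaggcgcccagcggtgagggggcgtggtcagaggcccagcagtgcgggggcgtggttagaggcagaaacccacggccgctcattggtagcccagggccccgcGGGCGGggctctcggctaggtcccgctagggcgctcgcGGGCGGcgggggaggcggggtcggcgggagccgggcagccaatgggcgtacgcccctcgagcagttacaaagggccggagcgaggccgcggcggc
Tgfbr2: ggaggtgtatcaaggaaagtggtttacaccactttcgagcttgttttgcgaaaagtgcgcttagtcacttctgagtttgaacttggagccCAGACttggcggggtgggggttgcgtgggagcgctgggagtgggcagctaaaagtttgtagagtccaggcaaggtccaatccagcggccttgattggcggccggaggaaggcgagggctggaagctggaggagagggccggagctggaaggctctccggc
Acvr2a: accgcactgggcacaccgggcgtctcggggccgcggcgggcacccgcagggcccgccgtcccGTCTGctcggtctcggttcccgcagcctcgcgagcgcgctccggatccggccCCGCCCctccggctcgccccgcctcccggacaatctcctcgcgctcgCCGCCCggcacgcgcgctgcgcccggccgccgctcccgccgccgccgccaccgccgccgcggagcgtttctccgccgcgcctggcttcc
The windows are chr4:47352972-47353221 on the plus strand for Tgfbr1, chr9:116175364-116175613 on the minus strand for Tgfbr2 and chr2:48813859-48814108 on the plus strand for Acvr2a. The printed Tgfbr1 window held GGGCGG at 2 places and no CAGAC, whereas the window of a second Tgfbr1 start, chr4:47385966-47386215, held CAGAC at 1 place and no GGGCGG. The Tgfbr2 window held CAGAC at 1 place and no GGGCGG, and Acvr2a held CAGAC at 1 place and GGGCGG at 2. Over the 9 member windows, that second start included, 3 held CAGAC and 7 held GGGCGG, against 42.2% and 32.7% of all 32851 windows of that length. The member windows were 52.8% to 85.6% G and C, with a median of 52.4% over all windows. A match of letters is a description and not a bound site.

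Tgfbr2, the type II kinase that binds TGF-b first, rose less than Tgfbr1. Its brightest probe set, 1426397_at, read 1423 in Smad2KO, 1212 in Smad3KO, 488 in Smad2KO_Smad3het and 1766 in WT with TGF-b, against 877, 970, 468 and 865 without it. Every one of the 3 arrays with TGF-b in the fit exceeded the 3 without, and the Smad2KO_Smad3het arrays were lower than all of them. Its mean log2 response was 0.68 and passed (SE 0.121, limma adjusted p = 0.00864), with folds of 1.62 in Smad2KO, 1.25 in Smad3KO and 2.04 in WT. A second probe set, 1425444_a_at, averaged 0.81 and missed the threshold (SE 0.252, limma adjusted p = 0.0831). It read 176 with against 59.9 without TGF-b in Smad2KO, 114 against 107 in Smad3KO, 151 against 220 in Smad2KO_Smad3het and 152 against 88.0 in WT. Without the Smad3KO pair it passed at 1.17 (limma adjusted p = 0.00131). The third Tgfbr2 probe set, 1422019_at, lay between 7.08 and 11.7 on the 6 arrays, under the floor.

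Tgfbr3, also called betaglycan, is a co-receptor without a kinase that presents TGF-b ligands to the type II receptor. The probe set 1433795_at read 653 in Smad2KO, 768 in Smad3KO and 600 in WT with TGF-b, against 489, 479 and 426 without it. It rose by 0.53 (SE 0.0941, limma adjusted p = 0.00523), and the largest ratio was in Smad3KO (log2 0.68, against 0.42 in Smad2KO and 0.49 in WT). The other probe set, 1425620_at, stood at 97.3, 105 and 91.4 with TGF-b and at 82.3, 85.7 and 91.7 without it, and its mean log2 response of 0.18 missed the threshold (limma adjusted p = 0.567). On the Smad2KO_Smad3het arrays, which stand apart as a whole, 1433795_at read 67.8 with and 93.2 without TGF-b, below every other array, and 1425620_at 514 and 342, above every other array. The signal of 67.8 was under the median of those arrays, 83.5.

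Among the activin receptors, Acvr1b and Acvr2a rose. Acvr1b, the type I receptor of activin that acts on Smad2 and Smad3, read 489 in Smad2KO, 301 in Smad3KO, 560.0 in Smad2KO_Smad3het and 491 in WT with TGF-b on 1433725_at. Without it the signals were 201, 243, 293 and 219. The Smad2KO and WT signals with TGF-b were nearly equal, and the Smad3KO signal lay between them and the arrays without TGF-b. The mean log2 response was 0.92 (SE 0.182, limma adjusted p = 0.0172), with folds of 2.43 in Smad2KO, 1.24 in Smad3KO, 1.91 in Smad2KO_Smad3het and 2.24 in WT. A second Acvr1b probe set, 1422098_at, was dim and ran the other way, at 13.5, 5.67 and 14.1 with TGF-b in Smad2KO, Smad3KO and WT and at 25.4, 28.7 and 24.5 without it. Of these 6 signals 1 reached the floor, so they have no order.

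Acvr2a, a type II receptor shared by activins and several BMPs, was called on both of its probe sets, of which 1451004_at was tested only through the arrays with TGF-b and could hardly have fallen. On 1437382_at it read 185 in Smad2KO, 76.8 in Smad3KO, 411 in Smad2KO_Smad3het and 189 in WT with TGF-b, against 65.0, 38.4, 145 and 42.4 without it. The fold was 2.85 in Smad2KO, 2.0 in Smad3KO, 2.84 in Smad2KO_Smad3het and 4.46 in WT, and the mean log2 response over the 3 genotypes was 1.56 (SE 0.23, limma adjusted p = 0.00178). On 1451004_at the mean was 1.75 (SE 0.267, limma adjusted p = 0.00226), from 102, 72.6 and 143 with TGF-b in Smad2KO, Smad3KO and WT and 22.2, 34.8 and 31.2 without it. With a floor at 2 times the median this mean was 0.98 (limma adjusted p = 0.0402). In Smad2KO the fold was at least 3.95, since the signal without TGF-b lay under the floor. Both signals of 1451004_at in Smad2KO_Smad3het, 15.3 and 10.96, were under the median of those arrays.

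Acvr1, a type I receptor of BMPs and activins, did not pass. Its probe set 1448460_at read 116 in Smad2KO, 78.3 in Smad3KO and 75.6 in WT with TGF-b, against 75.5, 53.8 and 52.5 without it. The groups did not overlap by a small margin, and the mean log2 response was 0.56 (SE 0.19, limma adjusted p = 0.0965). On 1416786_at it was 0.63 (SE 0.27, limma adjusted p = 0.177), with ratios of 0.04 in Smad2KO, 1.12 in Smad3KO and 0.74 in WT. The third, 1416787_at, was at 9.35 to 31.8 on the 6 arrays and at 299 with and 650 without TGF-b in Smad2KO_Smad3het. There 1448460_at was at 14.2 and 8.22, both under the median of those arrays. For Acvr1, as for Tgfbr3, genotype cannot be told apart here from the other ways in which the Smad2KO_Smad3het arrays differ.

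Bmpr2, the type II receptor of BMPs, rose on 2 of its 3 probe sets. The signals of 1434310_at with TGF-b were 442 in Smad2KO, 199 in Smad3KO, 213 in Smad2KO_Smad3het and 518 in WT, and those without it 132, 110.2, 109 and 90.7. On the 6 arrays all 3 signals with TGF-b exceeded all 3 without, as they did for 13.4% of all tested probe sets. The folds were 3.36 in Smad2KO, 1.81 in Smad3KO, 1.96 in Smad2KO_Smad3het and 5.71 in WT, and the mean log2 response over Smad2KO, Smad3KO and WT was 1.70 (SE 0.304, limma adjusted p = 0.0245). On 1419616_at it was 0.98 (SE 0.262, limma adjusted p = 0.04), from signals of 69.6, 45.7 and 71.8 with TGF-b and 31.9, 25.4 and 36.2 without. This probe set too was tested only through the arrays with TGF-b. The call for 1419616_at was lost with quantile normalization (limma adjusted p = 0.0505). The third Bmpr2 probe set, 1441652_at, was under the floor on the 6 arrays and read 228 with and 72.0 without TGF-b in Smad2KO_Smad3het. The signal without TGF-b was under the median of those arrays.

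Bmpr1a, a type I receptor of BMPs, was dim. Of its 6 probe sets only 1425492_at was tested, at 58.1, 43.7 and 65.8 with TGF-b in Smad2KO, Smad3KO and WT and 51.0, 41.8 and 46.7 without. Its mean log2 response, 0.25, missed the threshold (SE 0.242, limma adjusted p = 0.567), with an interval of -0.28 to 0.78. This probe set was tested only through the arrays with TGF-b and could hardly have fallen, so the interval cannot speak to a fall. In Smad2KO_Smad3het the same probe set was 2.41-fold higher with TGF-b, at 206 against 85.6. The other 5 reached at most 47.7 on the 6 arrays.

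Tgfb1, the main TGF-b ligand of lymphocytes, rose slightly. On 1420653_at it read 2198 in Smad2KO, 2272 in Smad3KO, 2939 in Smad2KO_Smad3het and 2606 in WT with TGF-b, against 2008, 1534, 2293 and 1866 without it. The mean log2 response was 0.39 (SE 0.0895, limma adjusted p = 0.0203), with folds of 1.09 in Smad2KO, 1.48 in Smad3KO, 1.28 in Smad2KO_Smad3het and 1.396 in WT. Of the 4 genotypes Smad2KO thus had the lowest ratio. The dimmer 1445360_at was at 0.59 and did not pass (SE 0.222, limma adjusted p = 0.131), with log2 ratios of 0.17 in Smad2KO, 1.01 in Smad3KO and 0.58 in WT. For Tgfb3 no ratio could be given in Smad2KO, Smad3KO or WT, since every signal was under the floor. Its probe set read 55.9 with and 149.9 without TGF-b in Smad2KO_Smad3het. The signal with TGF-b was under the median of those arrays, 83.5, so the size of this difference is not measured.

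**Figure D2:**
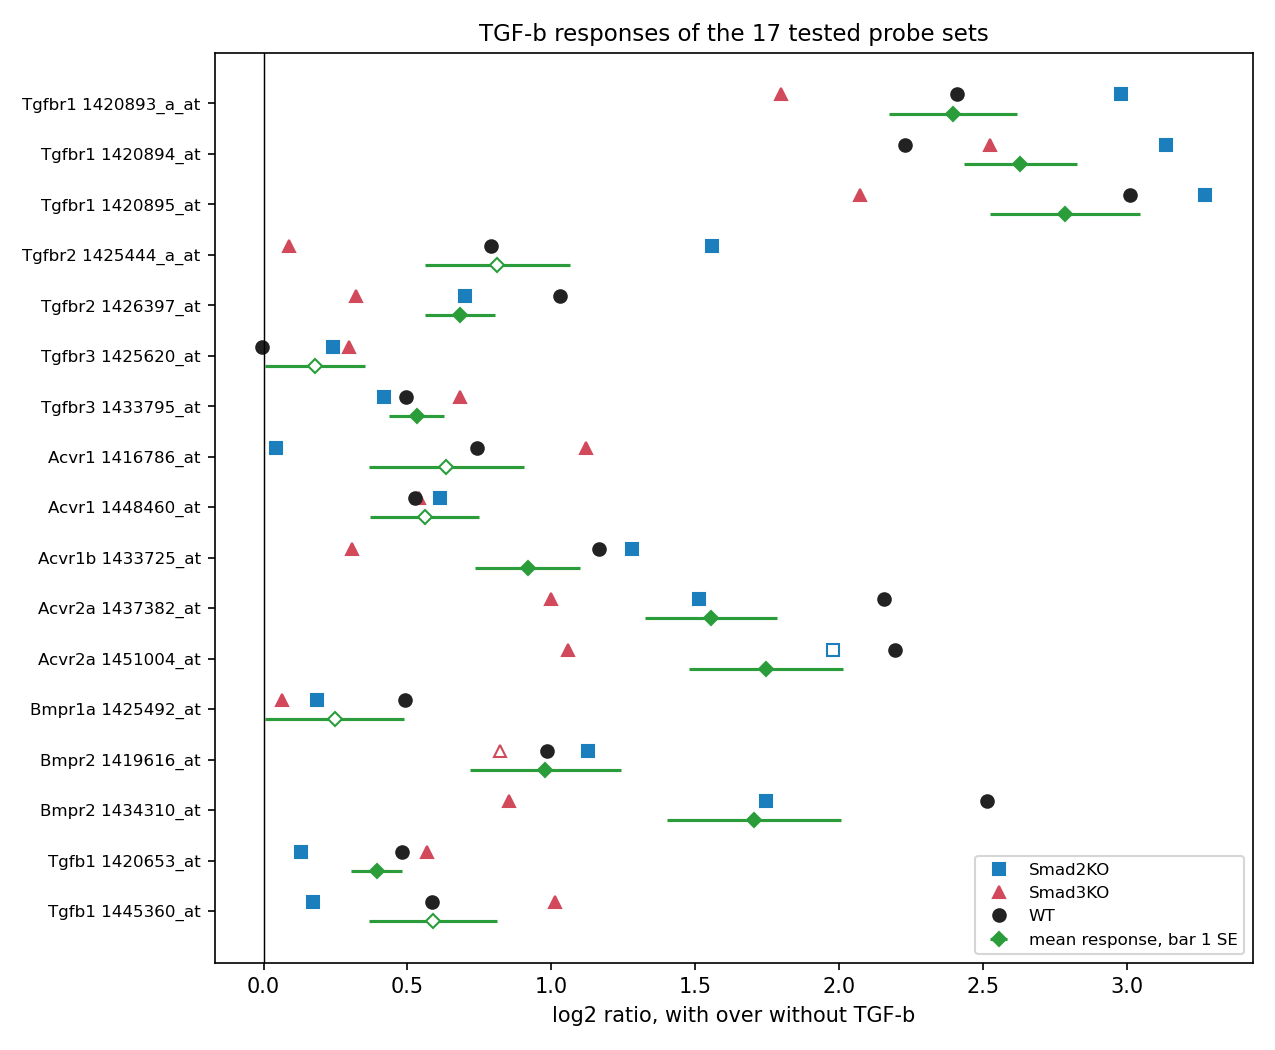
Log2 ratios of signals with over without TGF-b for the 17 tested probe sets, from single pairs of arrays in Smad2KO (blue squares), Smad3KO (red triangles) and WT (black circles), with open symbols where a signal lay under the floor. Green diamonds are the mean responses with bars of 1 SE, filled where the adjusted p was under 0.05, and run from 0.18 for 1425620_at of Tgfbr3 to 2.79 for 1420895_at of Tgfbr1.

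Counted in single pairs of arrays, 9 of 17 member probe sets were 2-fold higher or more with TGF-b in Smad2KO, 7 of 15 in Smad3KO and 8 of 17 in WT, out of those bright on either array of the pair. The shares over all such probe sets were 3.64% in Smad2KO, 2.1% in Smad3KO and 4.64% in WT. A probe set could enter through its array with TGF-b alone. Of the 7 in Smad3KO, 1420895_at of Tgfbr1 alone reached 51.6 without TGF-b, at 363, and the others read 29.2 to 43.7. Under 51.6 without TGF-b were also 1420893_a_at and 1420894_at of Tgfbr1, 1451004_at of Acvr2a and 1419616_at of Bmpr2 in Smad2KO. In WT these were 1437382_at and 1451004_at of Acvr2a. No member probe set bright on either array of these pairs was at least 2-fold lower, against 1.54% of all in Smad2KO, 0.785% in Smad3KO and 3.02% in WT. A member bright only with TGF-b could not have been lower, so for such members the filter fixed this outcome. The Smad3KO count was 4 with quantile normalization and 3 with a floor at 2 times the median. Of the 7, 1437382_at of Acvr2a lay at a fold of 2.0004, 1445360_at of Tgfb1 at 2.02 and 1451004_at of Acvr2a at 2.08. The WT count was 8 or 9 under each scaling and floor. In Smad2KO_Smad3het, whose own median of 83.5 was the floor, 4 of 13 were at least 2-fold higher, against 8.5% of all, and 1 was at least 2-fold lower, against 7.24%. The 4 were 1420895_at of Tgfbr1, 1437382_at of Acvr2a, 1425492_at of Bmpr1a and 1441652_at of Bmpr2, and the 1 was 1416787_at of Acvr1. Of the 4, 1420895_at alone reached 2 times this floor (167) without TGF-b, at 187. The others read 145, 85.6 and 72.0 in that order, the last under the floor. With a floor at 2 times the median the 4 became 2. These counts have no replicate check and no p. The spread of log2 ratios (robust SD) was 0.309 in Smad2KO, 0.245 in Smad3KO, 0.429 in Smad2KO_Smad3het and 0.37 in WT. It was taken over all probe sets that reached the floor on both arrays of a pair, which is not the set counted above. A wider spread by itself gives more probe sets at 2-fold.

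Whether the responses differed in Smad3KO was tested as the Smad3KO response minus the mean of the Smad2KO and WT responses, which leaves 1 residual degree of freedom before limma's moderation. Of 17 member probe sets 1 was lower and 0 were higher, where 0.104% and 0.0298% of 20140 probe sets were. It was 1420895_at of Tgfbr1, at -1.07 on the log2 scale (SE 0.182, 95% interval -1.46 to -0.68, limma adjusted p = 0.0219). After moderation its degrees of freedom were 16.3 in total, most of them borrowed from the other probe sets. The other Tgfbr1 probe sets were at -0.90 (interval -1.76 to -0.03, limma adjusted p = 0.785) and, for 1420894_at, at -0.16 (interval -1.05 to 0.74, limma adjusted p = 0.992), where WT had the lowest ratio of the 3. The call for 1420895_at was lost with no filter (limma adjusted p = 0.45), without limma's trend and robust settings (0.92), with a floor at 2 times the median (0.112) and on all 8 arrays (-0.57, limma adjusted p = 0.9999). Bmpr2 on 1434310_at was at -1.28 (interval -1.99 to -0.56, limma adjusted p = 0.291) and Acvr1b on 1433725_at at -0.91 (interval -1.42 to -0.41, limma adjusted p = 0.258). Neither passed over all probe sets. With arrays centred on their medians both did, at adjusted p = 0.012 for Bmpr2 and 0.0453 for Acvr1b.

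**Figure D3:**
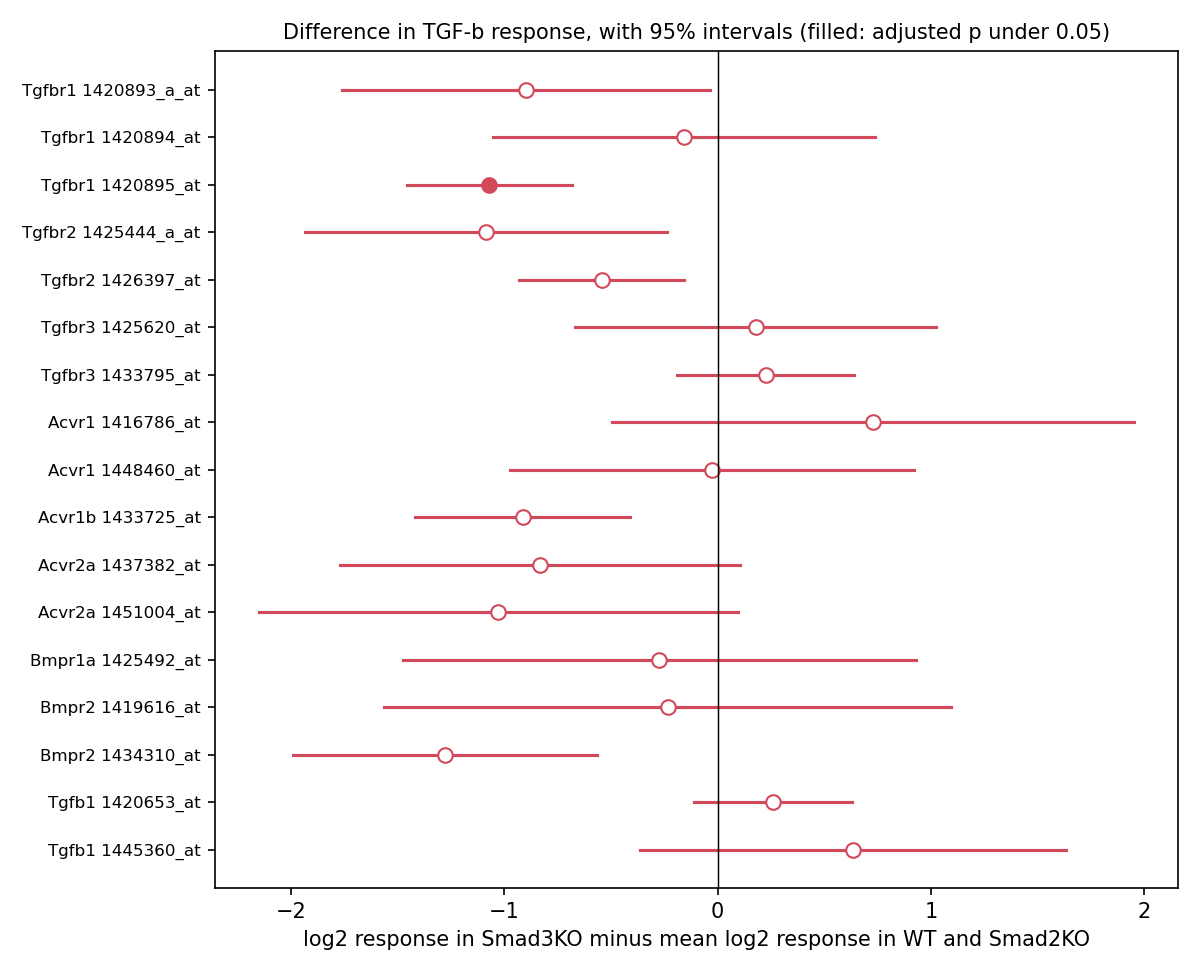
TGF-b response in Smad3KO minus the mean response in Smad2KO and WT, on the log2 scale, for the 17 tested probe sets, with 95% intervals from limma. The filled point, 1420895_at of Tgfbr1 at -1.07, is the one with an adjusted p under 0.05, and Tgfbr3, Tgfb1 and 1416786_at of Acvr1 have points above 0.

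With TGF-b, the signal was lowest in Smad3KO for 11 of the 17 probe sets (6 genes), where 33.5% of all tested were. Of the 11 that rose it was lowest in Smad3KO for 9 (5 genes), against 68% of all that rose. The log2 ratio was lowest in Smad3KO for 10 of the 17 probe sets (6 genes), where 34.1% of all tested were. Among the probe sets that rose, it was lowest in Smad3KO for 8 of 11 members (5 genes) and 63.7% of all 1194. The share among members was thus near that of all rising probe sets. Probe sets of the same gene are not independent of each other. Over the 11 rising members the median log2 ratio was 1.51 in Smad2KO, 0.85 in Smad3KO and 2.16 in WT, and over all 1194 it was 0.79, 0.63 and 0.88. The same difference for Smad2KO, against the mean of Smad3KO and WT, was called for 0 of 17 member probe sets and for 1 of 20136 in all (0.00497%). At an unadjusted p under 0.05 limma counted 504 of the 20136. Its widest member value was 1.12 for 1425444_a_at of Tgfbr2 (interval 0.19 to 2.04, limma adjusted p = 0.9998).

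Levels over both treatments were compared between genotypes with treatment as a block. In Smad2KO against WT 0 of 17 member probe sets passed in either direction, where 0.546% of all were higher and 0.412% lower and 1974 of 20147 had an unadjusted p under 0.05 in limma. Differences ran from -0.42 for 1420893_a_at of Tgfbr1 (interval -1.03 to 0.19) to 0.57 for 1448460_at of Acvr1 (interval 0.06 to 1.08). In Smad3KO against WT 0 of 17 passed as well, where 0.159% were higher and 0.213% lower and 2076 had an unadjusted p under 0.05. The lowest was 1420894_at of Tgfbr1 at -1.13 (interval -1.65 to -0.60, limma adjusted p = 0.0865), which passed with a floor at the 25th percentile (limma adjusted p = 0.0163). On all 8 arrays 0 of 23 member probe sets passed in either comparison. There 0.0173% of all were higher and 0.00694% lower in Smad2KO, and 0% and 0.00694% in Smad3KO, and 1008 and 975 had an unadjusted p under 0.05 in limma. For Tgfbr2 on 1426397_at the difference was -0.15 in Smad2KO (interval -0.48 to 0.19) and -0.19 in Smad3KO (interval -0.53 to 0.15).

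The genes whose profiles over the 6 arrays lay closest to the brightest Tgfbr1, Tgfbr2 and Bmpr2 probe sets were read as a description, each profile centred on its own mean. Closest to Tgfbr1 was Adam19, a membrane protease, with a root mean square difference of 0.111 on the log2 scale, although its signals without TGF-b were under the floor. Next were Ahr, a ligand-activated transcription factor (0.195), Tbc1d4, a Rab GTPase-activating protein (0.223), Egln3, a prolyl hydroxylase (0.252), and Igfbp4, which binds insulin-like growth factors (0.255). The 5 closest to Tgfbr2 were Stk38, Wdyhv1, Coro7, Tspo and Cep97, at 0.05 to 0.0597. The closest to Bmpr2 was Id1, an inhibitor of basic helix-loop-helix factors and a textbook target of BMP signalling, at 0.155. With TGF-b Id1 read 211 in Smad2KO, 98.3 in Smad3KO and 187 in WT, against 52.8, 46.1 and 41.1 without. Dgkh, Mxd4, Cux1 and Prnp followed, at 0.174 to 0.194, with the Mxd4 signals without TGF-b under the floor.

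Other genes of the pathway were read from lists, through the brightest probe set of each. Of 33 tested genes 9 rose and 1 fell (27.3% and 3.03%), against 6.48% and 4.58% of 9464 named genes tested in the same way. None of the tested members of these lists passed in the comparisons of levels between genotypes or of responses. Among the other receptors and co-receptors, 2 of 9 were bright enough to test and 0 passed. These, named after their values were seen, were the co-receptor Eng at -0.29 (limma adjusted p = 0.532) and Rgmb, a BMP co-receptor, at 0.14 (limma adjusted p = 0.703). None of the 11 other ligands with a named probe set was bright enough on the 6 arrays.

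Of 5 tested genes for the latency and activation of TGF-b, 2 rose and 1 fell. Furin, the protease that cuts the TGF-b precursor, read 568 in Smad2KO, 562 in Smad3KO, 683 in Smad2KO_Smad3het and 793 in WT with TGF-b, against 262, 244, 236 and 277 without it. It was higher with TGF-b in all 4 genotypes, rose by 1.28 (SE 0.109, limma adjusted p = 5.24e-05). Itgav, an integrin subunit that takes part in releasing active TGF-b, rose by 0.47 (SE 0.0823, limma adjusted p = 0.00486), and Nrros, which anchors latent TGF-b in myeloid cells, was at -0.41 and fell (SE 0.0976, limma adjusted p = 0.0231).

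Of 18 tested receptor regulators, 5 rose and 0 fell. Pmepa1, which keeps receptor Smads from the receptor, rose by 2.84 (SE 0.136, limma adjusted p = 1.91e-06), and Smad7, the inhibitory Smad that recruits ubiquitin ligases to Tgfbr1, by 1.14 (SE 0.153, limma adjusted p = 0.000936). Ldlrad4 had a fitted mean of 1.70 (SE 0.397, limma adjusted p = 0.0289), but its 3 signals without TGF-b lay under the floor and it reached the filter on arrays with TGF-b alone, so it could hardly have fallen. Smurf2, such a ligase, rose by 0.52 and Rnf11 by 0.44. Of 8 tested Smads and co-repressors, Skil rose by 1.84 (SE 0.116, limma adjusted p = 1.26e-05) and Ski by 1.28 (SE 0.122, limma adjusted p = 0.000106), and the other 6 did not pass. Of these Smad3, named here after its value was seen, was at 1.14 (SE 0.328, limma adjusted p = 0.125). That mean includes the Smad3 knockout itself. Its log2 ratios from single pairs of arrays were 1.29 in Smad2KO, 0.25 in Smad3KO and 1.88 in WT. On all 8 arrays Skil (limma adjusted p = 0.0344) and Furin (0.0487) passed. The other called genes of these lists did not, namely Smad7 (0.0931), Itgav (0.101), Pmepa1 (0.134), Ski (0.209), Nrros (0.256), Ldlrad4 (0.28), Rnf11 (0.321) and Smurf2 (0.44).

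**Figure D4:**
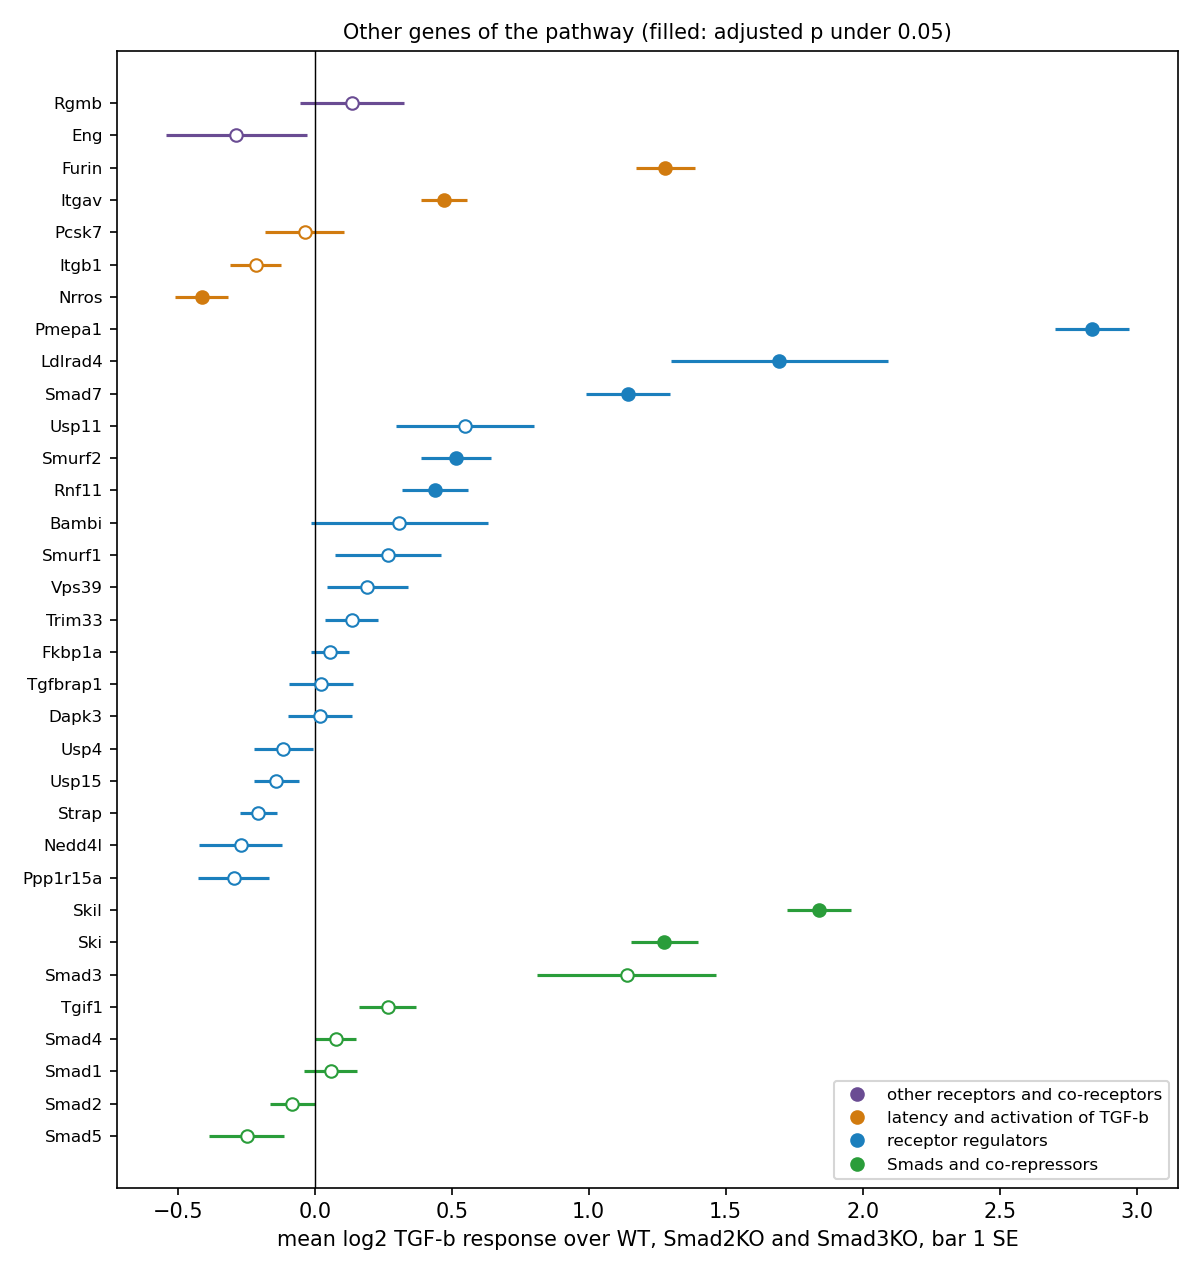
Mean log2 TGF-b responses over Smad2KO, Smad3KO and WT, with bars of 1 SE, for the 33 tested genes of the pathway lists, coloured by list and filled where the adjusted p was under 0.05. Pmepa1 at 2.84 and Skil at 1.84 have the largest values, and Nrros at -0.41 is the 1 filled point under 0.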

How the data were processed

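Per the labels' protocols, 8 cultures of naive CD4 T cells at a purity over 98% were kept for 24 h, and biotin-labelled targets from 6 ug of total RNA each were hybridised to single-colour Affymetrix arrays. The deposited values are linear intensities per probe set. The submitters' processing notes name GCOS 1.4, with no settings in the sources used. Deposited medians ran from 27.3 to 44.4, so the arrays were not at a common level. There were 45101 probe sets, of which 64 were controls. Gene symbols came from the platform annotation, and matching Entrez identifiers to the RefSeq gene table of GRCm38.p6 changed 0 of them.

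Each array was scaled to a 2% trimmed mean of 201.7 and floored at the median of the arrays in the fit (25.8 for 6 arrays, 39.0 for 8), and log2 was taken. Probe sets reaching 2 times the floor on any array were fitted with limma 3.58.1 in R 4.3.3, with trend and robust settings, with genotype or treatment as a block, and with Benjamini-Hochberg adjustment over all probe sets at 0.05. These fits left 2 residual degrees of freedom on 6 arrays before limma's moderation, and response differences left 1. The fits were also run on simulated data with known changes, independent noise and no floor. Such data differ from the floored arrays used here, and no result rests on them. The alternatives were quantile normalization, centring, other floors, no filter, all 8 arrays, plain limma, 1 probe set per gene, no block and leaving out each genotype pair. The number of arrays limits precision. All members were described, other pathway genes were counted by list and named where called, and the 5 closest profiles were named for Tgfbr1, Tgfbr2 and Bmpr2. The members, lists and settings were chosen with earlier results of these data known.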

Additional observations from a re-analysis of the deposited data

Results flagged for a closer look

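The response of Tgfbr1 on 1420895_at was smaller in Smad3KO than in Smad2KO and WT by the test of the difference itself, at -1.07 on the log2 scale (limma adjusted p = 0.0219), with ratios of 2.07 in Smad3KO, 3.27 in Smad2KO and 3.01 in WT. Another Tgfbr1 probe set, 1420894_at, had ratios of 2.53, 3.14 and 2.23 in the same order and did not pass. Each ratio comes from 1 array with and 1 without TGF-b.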

How the results depend on the processing

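In the mean TGF-b response, the 11 called member probe sets kept their sign under every alternative that tested them. Of the 11, 10 were still called with quantile normalization, 11 with centring, 9 with a floor at the 25th percentile, where another made 10 calls in all, 10 of 10 tested with a floor at 2 times the median and 9 with no genotype block. The number called was 4 with no filter (the 3 of Tgfbr1 and 1451004_at of Acvr2a), 4 with limma without trend and robust settings (the 3 of Tgfbr1 and 1419616_at of Bmpr2) and 0 on all 8 arrays. With 1 probe set per gene 7 genes were called. Leaving out a genotype pair gave 7 to 11 calls, and 7 (without WT), 7 (without Smad2KO) and 10 (without Smad3KO) of the 11 were still called. All probe sets that rose numbered 1194, against 373, 310 and 19 with no filter, plain limma and 8 arrays, 678 with 1 probe set per gene, 632 with no genotype block and 554 to 1550 without a pair. Those that fell numbered 704, against 142, 93 and 3 with no filter, plain limma and 8 arrays, 282 with no genotype block and 244 to 1197 without a pair. The lowest of these counts came without the Smad2KO pair and the highest without the Smad3KO pair. Centring moved the split to 1048 rises and 991 falls.

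For the Smad3KO difference in response, the member calls were 3 with centring, 2 with a floor at the 25th percentile and 0 with a floor at 2 times the median, no filter, 8 arrays or plain limma. The counts over all probe sets were 27, against 53 with quantile normalization, 126 with centring, 153 and 16 with the lower and the higher floor, and 0 with no filter, 8 arrays or plain limma. For the Smad2KO difference they were 1, against 43 with the lower floor and 0 with the higher floor, no filter, 8 arrays or plain limma. Levels of Smad3KO against WT gave 1 member call with the lower floor, and 75 calls in all, against 245 and 45 with the lower and higher floor, 3 with no filter, 2 on 8 arrays, 2 with plain limma, 43 with 1 probe set per gene and 3 with no treatment block. Levels of Smad2KO against WT gave 193 calls in all, against 340 with the lower floor, 18 with no filter, 7 on 8 arrays, 6 with plain limma, 98 with 1 probe set per gene and 19 with no treatment block. Member probe sets at least 2-fold higher numbered 7 in Smad3KO, against 4 with quantile normalization and 3 with the higher floor, and 4 in Smad2KO_Smad3het, against 2 with the higher floor.

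Differences that changed sign were all uncalled. In levels of Smad2KO against WT, 1425492_at of Bmpr1a stood at 0.0048 with quantile normalization and 1416786_at of Acvr1 at -0.030 with centring. In the Smad3KO response difference on 8 arrays, 1420894_at of Tgfbr1 stood at 0.11 and 1448460_at of Acvr1 at 0.16. In the Smad2KO response difference, 1437382_at and 1451004_at of Acvr2a stood at 0.29 and -0.0018 with the higher floor, and 1425620_at and 1433795_at of Tgfbr3 at -0.053 and 0.18 on 8 arrays. The cause of these changes was not tested. No paired analysis by replicate number was possible because the labels give no replicate numbers, so the genotype served as the block.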
